A study of Rattus norvegicus with 6 samples.

Results

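Expression of 33 genes of cholesterol and fatty acid synthesis was examined in the renal cortex of rats given potassium bromate. The genes were listed by function, with earlier results of these data known. They comprise 7 enzymes of the mevalonate route, 11 enzymes from squalene formation to cholesterol, 6 genes of SREBP control and sterol transfer, 6 genes of fatty acid synthesis and 3 genes of LXR signalling and cholesterol export. A probe was matched to 32 of the 33, and 31 were measured among the 27506 genes tested. Srebf1, which encodes the SREBP form with the larger part in fatty acid synthesis, was not matched to a probe. Scd, the desaturase that makes monounsaturated fatty acids, had 2 probes, and neither was well above background on any array.

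Cholesterol is built from acetyl-CoA through mevalonate and squalene, and the factor encoded by Srebf2 turns on the enzymes of this route together when sterols in the endoplasmic reticulum run low. The liver X receptors (LXR) sense oxidised sterols and turn on export pumps such as Abca1. Cortical tubule cells take up lipoproteins and burn fatty acids as their main fuel, and they also make cholesterol themselves.

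All 6 animals were male Sprague-Dawley rats (Crl:CD(SD)), bought at 5 weeks of age. Water was given to 3 of them and potassium bromate, an oxidising compound toxic to the kidney, to the other 3 at 100 mg/kg/day, in both cases for 4 weeks. The labels call the 3 animals of each group biological replicates, and each animal's cortex RNA was read on 1 Agilent single-colour array. A level is the log2 of a gene's signal over the 75th percentile signal of its array. Differences are bromate minus water, with the standard error (SE), and n = 3 per group. A gene is called higher or lower where the limma test gave a Benjamini-Hochberg adjusted p under 0.05 over all genes tested. Levels of different genes come from different probes and are not set against each other. The sums of marker levels are an exception, since they add different probes and give bright ones more weight.

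Between 35621 and 38801 probes per array were well above background and 0 were saturated. The number of arrays limits the precision. Water replicate 1 sat on a slide of its own, and all 5 others lay together on a second slide. Of 12 proximal tubule markers, all measured, 5 were lower with bromate, and their summed linear level was 1693 to 1704 in water and 1164 to 1336 in bromate. Among 7 markers of the distal tubule and thick ascending limb, 6 were lower. With 1 array left out, lower calls ranged from 2 (water replicate 3 or bromate replicate 2) to 5 in the proximal list and from 2 (water replicate 2 or bromate replicate 2) to 6 in the distal one. Some markers of other cell types were lower too, 4 of 8 for the collecting duct (median difference -0.97), 2 of 7 for podocytes (median -0.34) and 2 of 6 for endothelial cells (median -0.40). In the collecting duct list 6 differences were negative and 2 positive, Aqp2 at 0.40 and Aqp3 at 0.03, neither called. Its summed linear level overlapped between groups, at 197 to 275 in water and 156 to 275 in bromate. That sum gives most weight to the brightest probe, Aqp2, at 6.49, 6.69 and 7.17 in water and 7.76, 7.05 and 6.76 in bromate. The 4 lower markers, Slc26a4 (-5.47), Atp6v1b1 (-1.67), Slc4a1 (-1.59) and Avpr2 (-1.18), lay wholly below water. Podocyte calls were 0 without water replicate 2 or 3 or bromate replicate 2 or 3. Endothelial calls were 1 without water replicate 2 or 3 or bromate replicate 3, and 0 without bromate replicate 2. With a replicate block lower calls were 1 for the proximal, 4 for the distal, 4 for the collecting duct and 0 for the podocyte and endothelial lists. In whole cortex RNA, fewer cells of a type and less RNA per cell cannot be told apart. Adipocyte markers summed to 4.97 to 6.74 in water and 5.66 to 6.61 in bromate. Lep and Retn were well above background on too few arrays to be measured, and Plin1 was not matched. The brightest adipocyte probe, Pnpla2 (difference 0.26), weighs most in this sum. Of the 6 measured adipocyte markers 0 were called, with 3 differences positive and 3 negative (median -0.11). Fabp4 (-1.23) lay wholly below water and Lipe (0.47) wholly above, while Adipoq (-0.44) overlapped. Adrenal cortex markers summed to 0.63 to 2.04 and 1.03 to 1.31, and Cyp11b1, Cyp11b2, Mc2r and Nr5a1 were not well above background on any array. The part of these cell types in the results below was not tested.

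Bromate cortex had more mRNA for 4 enzymes of cholesterol synthesis, Sqle, Pmvk, Tm7sf2 and Cyp51, by 1.41-fold to 1.76-fold, and for the cholesterol export pump Abca1, by 3.1-fold. By limma, 0 members were called lower, and 1 (Acat2) was lower at an unadjusted p under 0.05, against 10 higher. Of all 27506 genes tested, 4193 were higher and 4849 lower at that unadjusted threshold. These 5 higher members are 16.1% of the 31 measured, and 6.87% of all genes tested were called higher, 7.59% lower and 14.5% either way. The bromate arrays lay wholly above the water arrays in 12 members (38.7%) and wholly below in 1, Acat2, or 13 in all. Over all genes tested, 19.6% lay above and 21.5% below, 41% in all. Differences were positive in 22 members and negative in 9, with a median of 0.19 and a range from -0.37 to 1.63. Over all genes, 47% were positive and the median was -0.02. Abca1 was the only member past a 2-fold change.

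**Figure D1:**
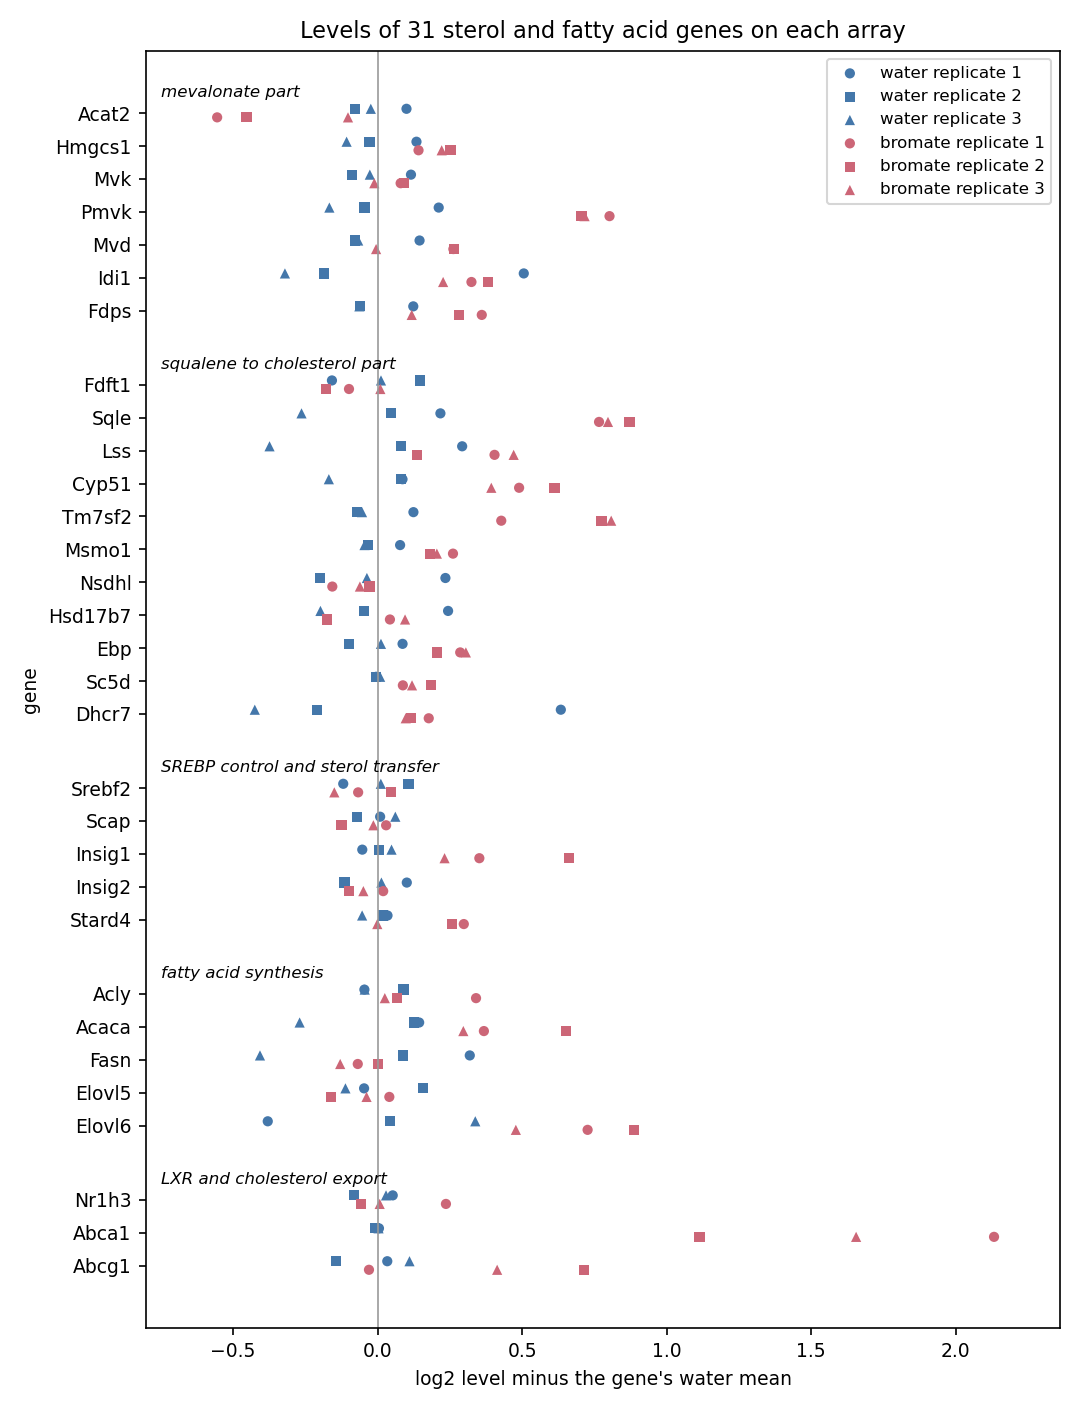
Level of each of the 31 measured genes on each array, as log2 level minus the mean of the gene's 3 water arrays (horizontal axis), with genes on the vertical axis grouped by role. Blue symbols are water arrays and red symbols bromate arrays. The bromate symbols of Pmvk, Sqle, Cyp51, Tm7sf2 and Abca1 lie to the right of all water symbols, and the water replicate 1 symbol of Dhcr7 and Idi1 lies to the right of the other water symbols.

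Among the 18 enzymes of cholesterol synthesis, 4 were called higher (22.2%), 8 lay wholly above water (44.4%) and 14 had positive differences (77.8%). Their median difference was 0.21. Of the 7 mevalonate enzymes 1 was called higher, with a median of 0.21, and of the 11 later enzymes 3 were, with a median of 0.22.

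Squalene epoxidase, encoded by Sqle, carries out the first oxygen-dependent step of sterol synthesis and is one of its rate-limiting enzymes. Sqle levels were 1.62, 1.45 and 1.14 in water replicates 1 to 3 and 2.17, 2.28 and 2.20 in bromate replicates 1 to 3. The bromate values lay close together and above all water values. The difference was 0.81 ± 0.14 (SE; adjusted p = 0.019), or 1.76-fold. A second Sqle probe differed by 0.88 ± 0.12 (adjusted p = 0.012 among all probes).

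Phosphomevalonate kinase, encoded by Pmvk, adds the second phosphate to mevalonate. Its levels were 0.44, 0.19 and 0.07 in water and 1.03, 0.94 and 0.95 in bromate. All 3 bromate arrays exceeded the highest water array, replicate 1. Pmvk rose by 0.74 ± 0.12 (adjusted p = 0.016), or 1.67-fold, and had a single probe. The kinase before it, Mvk, differed by 0.05 ± 0.09, with a 95% interval from -0.17 to 0.27.

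Tm7sf2 encodes a sterol C14 reductase that acts just after the demethylase Cyp51. Its levels were 2.62, 2.42 and 2.44 in water and 2.92, 3.27 and 3.30 in bromate. Bromate replicate 1 was the lowest of the treated arrays and still above every water array. The difference was 0.67 ± 0.13 (adjusted p = 0.028), or 1.59-fold, and the other probe of Tm7sf2 rose by 0.83 ± 0.11 (adjusted p = 0.010 among all probes).

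Lanosterol demethylase, encoded by Cyp51, removes the first methyl group from lanosterol. Levels of Cyp51 were -0.16, -0.17 and -0.42 in water and 0.24, 0.36 and 0.15 in bromate. The groups did not overlap. Its difference of 0.50 ± 0.11 (adjusted p = 0.037), or 1.41-fold, was the smallest of the 5 calls. Its other probe differed by 0.55 ± 0.13 (adjusted p = 0.042 among all probes).

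A further 4 enzymes of the later steps and of mevalonate synthesis lay wholly above water without being called. Hmgcs1, the synthase that joins acetoacetyl-CoA and acetyl-CoA, had levels of 2.79, 2.63 and 2.55 in water and 2.80, 2.91 and 2.88 in bromate. Only a narrow gap separated water replicate 1 from bromate replicate 1, and the difference was 0.21 ± 0.09 (adjusted p = 0.193). Msmo1, which removes the later methyl groups, was at 4.27, 4.16 and 4.15 in water and 4.46, 4.38 and 4.40 in bromate, a difference of 0.22 ± 0.08 (adjusted p = 0.120). Ebp, the isomerase that shifts the ring double bond, was at 3.87, 3.69 and 3.80 against 4.07, 3.99 and 4.09, a difference of 0.27 ± 0.09 (adjusted p = 0.091). Sc5d, a desaturase of the last steps, differed by 0.13 ± 0.07 (adjusted p = 0.269). These differences are at most 1.20-fold, and the 95% intervals of Msmo1 (0.02 to 0.41) and Ebp (0.06 to 0.48) lay above 0 before adjustment for the number of genes.

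Acat2 was the one enzyme whose bromate arrays lay below water. It encodes the cytosolic thiolase that makes acetoacetyl-CoA for the pathway. Levels were 3.45, 3.28 and 3.33 in water and 2.80, 2.90 and 3.25 in bromate. Bromate replicate 3 came close to the water arrays while bromate replicates 1 and 2 lay further below. The difference of -0.37 ± 0.14 did not pass the test (adjusted p = 0.127), and its second probe gave -0.33 ± 0.13.

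The other enzymes overlapped between groups. Fdps, which makes farnesyl diphosphate, differed by 0.25 ± 0.10 (95% interval -0.0013 to 0.51). Mvd, the decarboxylase that ends the mevalonate steps, differed by 0.17 ± 0.12, and the cyclase Lss by 0.34 ± 0.19. Fdft1, the squalene synthase, gave -0.09 ± 0.11, Nsdhl -0.08 ± 0.13 and Hsd17b7 -0.01 ± 0.14, the latter both enzymes of the demethylation complex. Their intervals reached from -0.36, -0.40 and -0.37 up to 0.18, 0.23 and 0.34. A second Hsd17b7 probe differed by 0.15 ± 0.23, with a wider 95% interval from -0.42 to 0.72.

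The water values of Dhcr7 and Idi1 spread widely. The final reductase of the pathway, Dhcr7, was at 3.06, 2.21 and 2.00 in water and 2.60, 2.54 and 2.52 in bromate. Water replicate 1 was the highest array and water replicates 2 and 3 the lowest, with the bromate arrays between them. Idi1, the isopentenyl diphosphate isomerase, showed the same order at 1.35, 0.66 and 0.52 in water and 1.17, 1.23 and 1.07 in bromate. The differences were 0.13 ± 0.27 for Dhcr7 and 0.31 ± 0.22 for Idi1. The standard deviations of the 3 water arrays, 0.56 and 0.44, were the largest of all members, against 0.04 and 0.08 in bromate.

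Water replicate 1 was the highest water array in 22 of the 31 members (71%), against 37.3% of all genes tested. It also held the highest summed level of straight proximal tubule markers, 641 against 333 and 295 in water replicates 2 and 3 and 197 to 250 in bromate. On water replicate 1 this sum gives most weight to Slc3a1 (8.52) and Slc7a13 (7.61). Among the water arrays, Cyp2e1 (6.18 against 6.20 and 6.59) and Slc22a13 were lowest on replicate 1, and the other markers of this list were highest there. Of these 8 markers 0 were called (limma), 4 were lower at an unadjusted p under 0.05, and their part in the members' values was not tested. Without water replicate 1, which leaves the 5 arrays of the other slide, 26 members had positive differences and the median was 0.25. Idi1 was then called higher, at 0.56 (adjusted p = 0.032), and Cyp51 was not, at 0.54 (adjusted p = 0.054). Pmvk, Sqle, Tm7sf2 and Abca1 were called on these 5 arrays too, at 0.85, 0.92, 0.73 and 1.64.

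**Figure D2:**
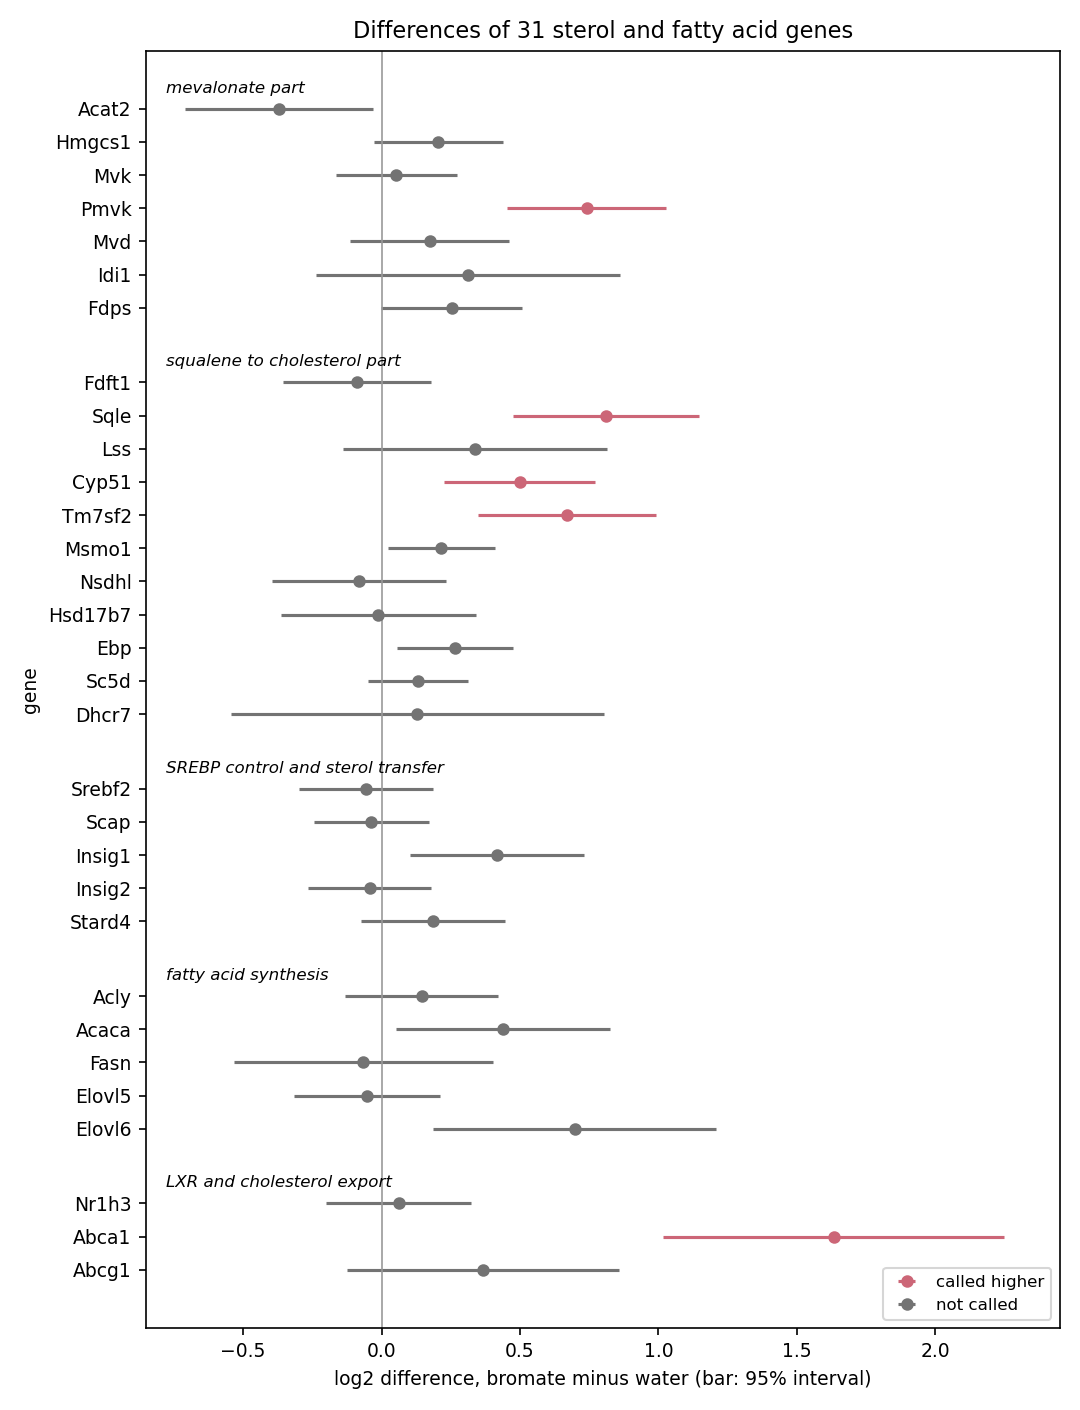
Log2 difference, bromate minus water (horizontal axis), of each of the 31 measured genes, listed on the vertical axis by role. Points are differences and bars 95% intervals from the limma fit before adjustment, and red marks the 5 genes called higher. The widest bars among the enzymes are those of Dhcr7 (-0.54 to 0.80) and Idi1 (-0.24 to 0.86).

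Each of the 5 calls was lost when some single array was left out. Their direction could not turn in such a fit, since every bromate array lay above every water array in all 5. Leaving out water replicate 2 or bromate replicate 3 ended all 5, with adjusted p-values (limma) up to 0.095 and 0.079, and 8 and 10 members were then higher at an unadjusted p under 0.05. Without water replicate 3 only Sqle stayed called, at 0.68 (adjusted p = 0.038). Without bromate replicate 2 only Abca1 did, at 1.89 (adjusted p = 0.013). Without bromate replicate 1 Pmvk, Sqle, Tm7sf2 and Abca1 were called, and Cyp51 was at 0.50 (adjusted p = 0.084). Cyp51 was called in 0 of the 6 fits, with adjusted p-values from 0.054 to 0.113. With no filter on dim probes, 2 members were called, Pmvk and Abca1.

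Several genes had more than 1 probe, which gave a check within the same animals. All probes lay on one side of 0 in 15 of the 18 members with over 1 probe passing the filter. The 3 others were Acaca, Hsd17b7 and Srebf2. The 3 higher genes with a second probe, Sqle, Cyp51 and Tm7sf2, were called at both.

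**Figure D3:**
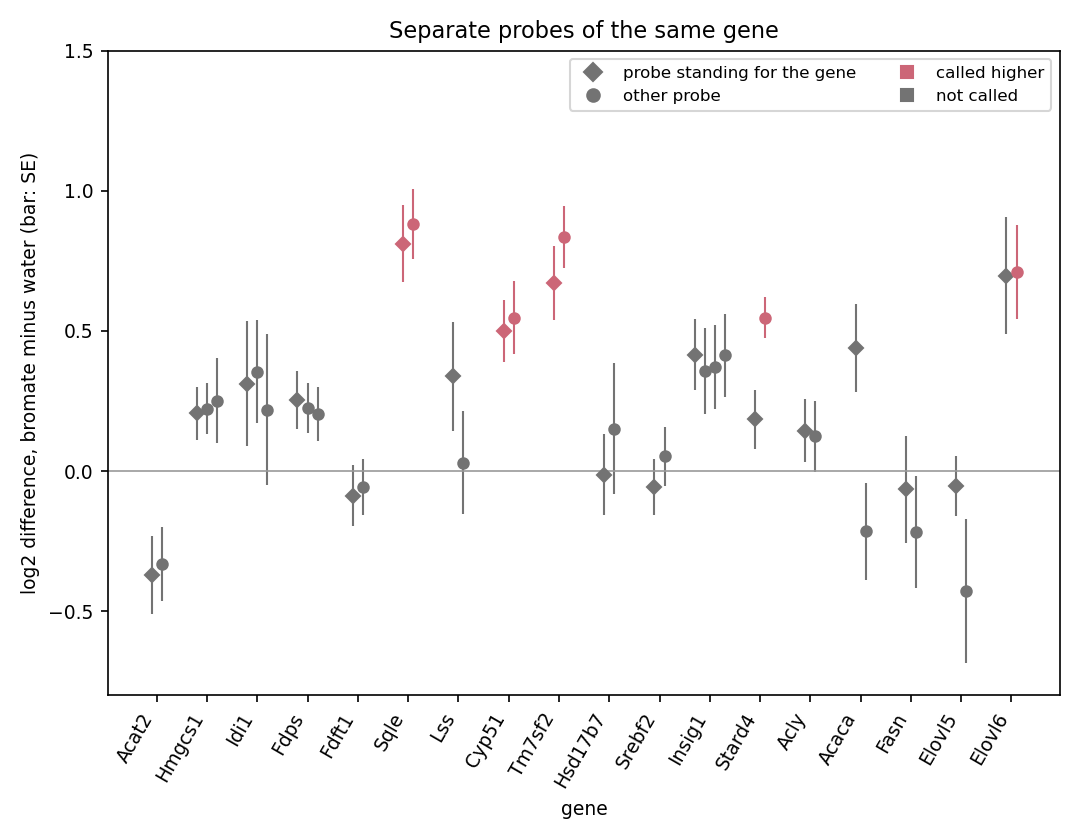
Log2 difference, bromate minus water (vertical axis), at each probe of the 18 genes with over 1 probe (horizontal axis), with bars of 1 SE. Diamonds are the probes standing for a gene, circles the other probes, and red marks called probes. Both probes of Sqle, Cyp51 and Tm7sf2 are red, and 1 probe each of Stard4 and Elovl6.

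Promoter sequences are shown for the called genes Cyp51 and Tm7sf2 and for Mvk, which differed little between the groups. They come from RefSeq (assembly GRCr8) and span 250 bases before to 50 after the gene start, with the match by symbol found for 25 of the 33 genes in 26 promoters. The called genes Sqle and Pmvk had no promoter among them. Capitals mark the letters CCAAT, a box bound by NF-Y, and GGGCGG, a GC box bound by Sp1-type factors, on either strand; no match overlaps another in the sequences printed.
Cyp51: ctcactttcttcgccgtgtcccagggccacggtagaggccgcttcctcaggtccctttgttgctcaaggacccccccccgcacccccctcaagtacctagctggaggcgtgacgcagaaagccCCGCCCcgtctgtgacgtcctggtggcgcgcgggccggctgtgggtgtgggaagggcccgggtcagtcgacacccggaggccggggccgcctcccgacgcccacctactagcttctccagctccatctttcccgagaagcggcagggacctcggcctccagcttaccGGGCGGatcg
Tm7sf2: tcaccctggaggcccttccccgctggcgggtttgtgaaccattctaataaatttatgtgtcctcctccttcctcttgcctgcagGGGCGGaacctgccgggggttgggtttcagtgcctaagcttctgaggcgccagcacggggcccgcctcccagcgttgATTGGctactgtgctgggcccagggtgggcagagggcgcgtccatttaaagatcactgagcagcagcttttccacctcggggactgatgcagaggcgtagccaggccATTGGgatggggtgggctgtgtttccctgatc
Mvk: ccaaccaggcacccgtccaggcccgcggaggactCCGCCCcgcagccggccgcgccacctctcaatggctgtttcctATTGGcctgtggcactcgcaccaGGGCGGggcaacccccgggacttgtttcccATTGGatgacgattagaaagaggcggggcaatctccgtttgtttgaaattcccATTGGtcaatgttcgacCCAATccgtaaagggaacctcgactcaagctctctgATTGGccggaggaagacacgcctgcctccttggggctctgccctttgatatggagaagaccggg
The Cyp51 promoter lies at chr4:30991443-30991742 on the plus strand, that of Tm7sf2 at chr1:212789492-212789791 on the minus strand and that of Mvk at chr12:47819454-47819753 on the minus strand. NF-Y and Sp1 are known partners of SREBP at sterol genes. Cyp51 had 2 GC boxes and 0 CCAAT boxes in this window, Tm7sf2 had 1 and 2, and Mvk had 2 and 5.

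CCAAT was found in 19 of the 26 promoters of the listed genes (73.1%), against 37.5% of all 33469 promoters and 37.7% of the promoters of genes tested here. GGGCGG was found in 20 (76.9%), against 33.1% of all promoters and 58.4% of those of genes tested. Among members that were not called, 16 of 20 promoters held CCAAT (80%), and among the called ones 1 of 3 did. GGGCGG was in 15 of the 20 and in 3 of 3, and CACGTG, an E-box, in 4 of the 20 and 1 of 3. The sterol element TCACNCCAC was found in 0 of the 26 on either strand, and in 1.12% of all promoters; this says only that these letters are not in the window. Each match is a description of letters, not a measured binding site.

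Of the 5 measured genes of SREBP control and sterol transfer, 0 were called (limma), and 1, Insig1, was higher at an unadjusted p under 0.05. Srebf2 itself was at 1.49, 1.72 and 1.62 in water and 1.54, 1.66 and 1.46 in bromate, overlapping between groups, with a difference of -0.06 ± 0.10 (95% interval -0.30 to 0.19). Scap, which escorts SREBP out of the endoplasmic reticulum, differed by -0.04 ± 0.08. Insig2, one of the proteins that hold Scap back, differed by -0.04 ± 0.09.

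Insig1, the other retention protein and itself a known SREBP target, was at 2.24, 2.30 and 2.34 in water and 2.65, 2.96 and 2.53 in bromate. All bromate arrays lay above water, and bromate replicate 2 was the highest. The difference was 0.42 ± 0.13 and was not called (adjusted p = 0.082). Its 4 probes gave 0.36 to 0.42, all positive and none called.

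Stard4, a carrier that moves cholesterol between membranes, was at 1.87, 1.86 and 1.79 in water and 2.14, 2.10 and 1.84 in bromate. Bromate replicate 3 overlapped with water, and the difference was 0.19 ± 0.11 (adjusted p = 0.278). Its second probe separated the groups at -2.73, -2.72 and -2.80 in water and -2.21, -2.23 and -2.16 in bromate, a rise of 0.55 ± 0.07 (adjusted p = 0.011 among all probes). With the mean of the probes, Stard4 was called higher at 0.37. Both probes were higher with bromate, and one of them was called.

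Of the 5 measured genes of fatty acid synthesis, 0 were called (limma), 2 were higher at an unadjusted p under 0.05, the same number lay above water and the median difference was 0.14. Elovl6, which extends palmitate to stearate, had the largest difference of this group. It was at 0.96, 1.38 and 1.68 in water and 2.07, 2.23 and 1.82 in bromate. The groups did not overlap, though the water arrays spread widely and replicate 3 lay near bromate replicate 3. The difference of 0.70 ± 0.21, or 1.62-fold, missed the threshold (adjusted p = 0.076), and a second probe of Elovl6 at 0.71 ± 0.17 passed it (adjusted p = 0.043 among all probes).

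Acaca encodes acetyl-CoA carboxylase, which commits carbon to fatty acid synthesis. It was at -3.91, -3.93 and -4.33 in water and -3.69, -3.41 and -3.76 in bromate, without overlap. The difference was 0.44 ± 0.16 (adjusted p = 0.116), but a second Acaca probe gave -0.22 ± 0.17, so its direction depends on the probe. Fasn, the synthase itself, was at 1.65, 1.42 and 0.93 in water and 1.27, 1.33 and 1.20 in bromate. The bromate values fell inside the water range, with a difference of -0.07 ± 0.19 (95% interval -0.53 to 0.40). Acly, which makes cytosolic acetyl-CoA from citrate, differed by 0.14 ± 0.11, and the polyunsaturated fatty acid elongase Elovl5 by -0.05 ± 0.11.

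Abca1 moves cholesterol and phospholipid out of cells onto lipid-poor lipoproteins and had the largest difference of all members. It was at -2.78, -2.79 and -2.78 in water and -0.65, -1.67 and -1.13 in bromate. The water arrays were nearly identical and the bromate arrays spread over 1.02, with replicate 1 the highest and replicate 2 the lowest. The difference was 1.63 ± 0.25 (95% interval 1.02 to 2.25; adjusted p = 0.015), or 3.1-fold. Abca1 had a single probe. Without bromate replicate 1 the difference was 1.38 (adjusted p = 0.021).
Its promoter is shown because Abca1 changed most, with the same capitals and the same RefSeq assembly, at chr5:72596424-72596723 on the minus strand.
Abca1: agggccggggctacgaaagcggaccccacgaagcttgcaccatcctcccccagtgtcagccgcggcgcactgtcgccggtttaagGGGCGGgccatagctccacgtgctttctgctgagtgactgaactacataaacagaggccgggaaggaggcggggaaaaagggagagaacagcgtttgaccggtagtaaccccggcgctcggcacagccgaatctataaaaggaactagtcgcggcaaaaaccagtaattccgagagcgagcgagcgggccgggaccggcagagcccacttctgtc
It held 1 GC box, 0 CCAAT boxes and 1 E-box (CACGTG), which 6.42% of all promoters, 8.95% of those of genes tested and 5 of the 26 of the listed genes (19.2%) hold.

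The half-transporter Abcg1 passes cholesterol on to larger lipoproteins. Abcg1 was at 1.16, 0.99 and 1.24 in water and 1.10, 1.85 and 1.54 in bromate. Bromate replicate 1, the highest for Abca1, was inside the water range for Abcg1, and the difference was 0.37 ± 0.20 (adjusted p = 0.260). Nr1h3, which encodes LXR alpha, was at 4.04, 3.91 and 4.02 in water and 4.22, 3.93 and 3.995 in bromate. These groups overlapped and differed by 0.06 ± 0.11 (95% interval -0.20 to 0.32).

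Macrophages also express Abca1 and Abcg1. Of 13 macrophage markers 12 were measured, 2 were called higher, C1qb at 0.93 ± 0.21 (adjusted p = 0.037) and Cd14 at 1.23 ± 0.12 (adjusted p = 0.004), and Cd163 was well above background on 1 array. Differences were positive in 11 of the 12, with a median of 0.52. C1qb was at 3.28, 3.49 and 3.59 in water and 3.95, 4.64 and 4.57 in bromate. Cd14 was at -0.44, -0.52 and -0.56 in water and 0.51, 0.88 and 0.78 in bromate, so both lay above every water array on all 3 bromate arrays. Without bromate replicate 1 there were 5 higher macrophage markers, and without any other single array there was 1. The summed linear level of the markers was 111 to 136 in water and 114, 179 and 172 in bromate replicates 1 to 3. This sum gives most weight to the brightest probe, that of Lyz2, at 6.31, 6.14 and 6.56 in water and 6.18, 6.82 and 6.75 in bromate. The part of macrophages in the values of Abca1 and Abcg1 was not tested.

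**Figure D4:**
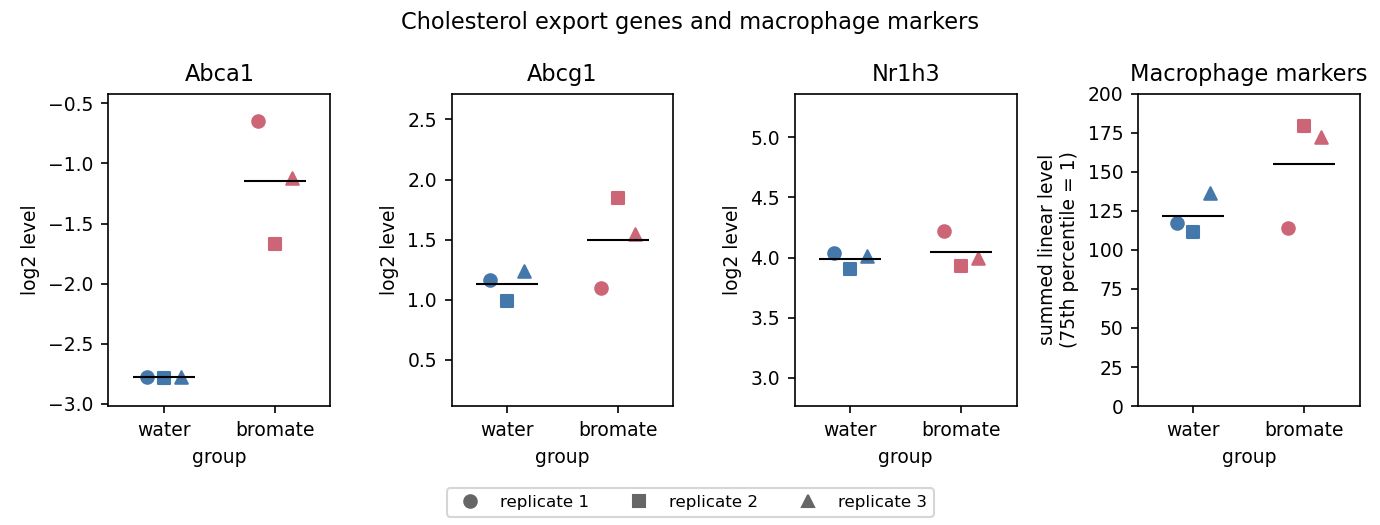
Log2 levels of Abca1, Abcg1 and Nr1h3 (first 3 panels; vertical axes span the same number of log2 units) and the summed linear level of the macrophage markers (last panel, from 0), by group. Symbols are single arrays by replicate and lines are group means. Abca1 lies above water on all 3 bromate arrays, and the marker sum, to which Lyz2 adds most, is 114, 179 and 172 in bromate replicates 1 to 3 against 111 to 136 in water.

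Other genes of the same pathways included calls in both directions. Of 17 other sterol genes 0 were called higher (limma; 2 at an unadjusted p under 0.05) and 2 lower, with a median difference of 0.00. Acat1, the mitochondrial thiolase, was at 4.40, 4.28 and 4.63 in water and 3.40, 3.49 and 3.73 in bromate, a difference of -0.90 ± 0.13 (adjusted p = 0.014). Erlin1, which takes part in the breakdown of sterol-regulated proteins, fell by 0.60 on the log2 scale (adjusted p = 0.014). Leaving out water replicate 2 left 1 lower call here, and leaving out bromate replicate 2 left 0. With a replicate block 1 was called lower.

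Of 28 other genes of fatty acid and glycerolipid synthesis 1 was higher and 2 were lower, with a median of -0.04. Acsl4, which activates polyunsaturated fatty acids, rose by 0.56 ± 0.08 (adjusted p = 0.012). Elovl1, which extends very long chains, fell by 0.54 (adjusted p = 0.025), and Acsl1, which activates long-chain acids, fell by 0.46 (adjusted p = 0.042). Without water replicate 2 or 3, or bromate replicate 2 or 3, 0 of these genes were called lower and 1 higher, and without bromate replicate 1 there were 1 lower and 2 higher. Other settings gave 3 higher and 2 lower (normexp), 3 and 3 (the filter on all 6 arrays, and the intensity trend), 2 and 1 (quantile normalization), 1 and 1 (the percentile over probes detected on every array), 1 and 0 (no filter on dim probes) and 0 and 0 (replicate block). The median turned to 0.05 under normexp, 0.02 with the filter on all 6 arrays and 0.09 with slide as a block, and ranged from -0.06 to 0.09 with 1 array left out. Acss2, another gene known to be switched on by SREBP, was at 4.52, 2.99 and 2.50 in water and 2.23, 2.27 and 2.39 in bromate. Water replicate 1 stood far above the other arrays, as for Dhcr7, and the difference of -1.04 ± 0.50 was not called; Acss2 was named after its values were seen.

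Of 8 other LXR and sterol transport genes 1 was higher and 2 lower, with a median of -0.19. Scarb1, the receptor that takes cholesterol ester from lipoproteins, was at -0.67, -0.32 and -0.55 in water and 0.33, 0.34 and 0.62 in bromate. It rose without overlap by 0.95 ± 0.13 (adjusted p = 0.013). Pltp, a phospholipid transfer protein and known LXR target, fell by 0.93 (adjusted p = 0.013), and Abca7, a relative of Abca1, fell by 0.89 (adjusted p = 0.046). With any 1 array left out, 1 gene of this list was called higher and 1 lower, as with slide as a block or no filter on dim probes, and with a replicate block 0 were higher and 1 lower. Calls among the LXR and transport genes thus went both ways.

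Genes of fatty acid oxidation had mostly negative differences. Of 22 measured, limma called 6 lower and 0 higher (15 and 0 at an unadjusted p under 0.05), 15 lay wholly below water and 21 had negative differences, with a median of -0.32. Over all genes tested, 7.59% were called lower and 21.5% lay wholly below water. Of these 27506 genes, 14580 had negative differences and 4849 were lower at an unadjusted limma p under 0.05. Acadm, the medium-chain dehydrogenase, was at 6.72, 6.39 and 6.42 in water and 5.996, 5.56 and 5.74 in bromate, a difference of -0.74 ± 0.15 (adjusted p = 0.031). Ech1, Acadvl and Hadh, further enzymes of the oxidation cycle, fell by 0.62, 0.55 and 0.51. The proximal tubule markers given above were lower in sum on the same bromate arrays, and their part here was not tested. With 1 array left out, lower calls in this list numbered 3, 2 and 0 for water replicates 1, 2 and 3 and 5, 0 and 1 for bromate replicates 1, 2 and 3, and the median stayed between -0.40 and -0.26. Lower calls numbered 10 with the intensity trend, 3 with slide as a block, 2 with a replicate block and 0 with no filter on dim probes.

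**Figure D5:**
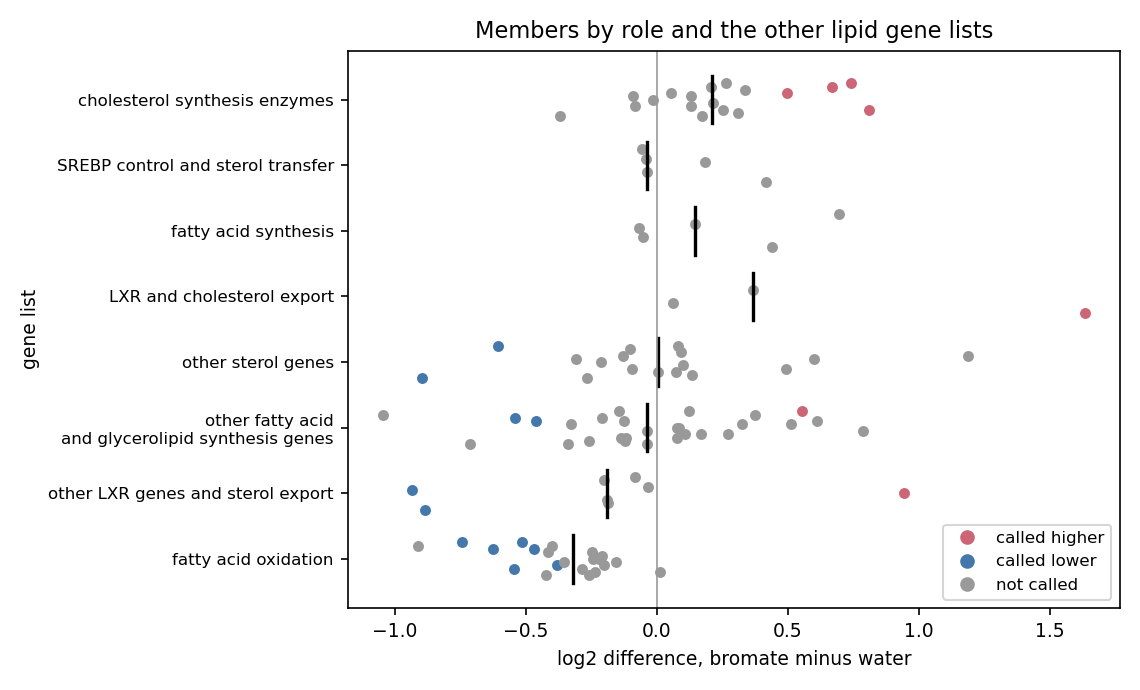
Log2 difference, bromate minus water (horizontal axis), of each measured gene in the members' roles and in the 4 other lipid gene lists (vertical axis; points are offset for legibility). Red points were called higher, blue points lower, and black bars are list medians. The median is 0.21 for the 18 cholesterol synthesis enzymes and -0.32 for fatty acid oxidation.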

How the data were processed

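Per the labels' protocols, total RNA of 6 rat renal cortices was labelled with Cy3, 1 array per animal. Agilent Feature Extraction 10.7 wrote a background-subtracted and detrended intensity per spot and flags, per the submitters' processing notes and the file headers, which name build rn4. In the authors' deposited table each value is a linear ratio. Set against the scanner files, it was the processed intensity over the 75th percentile of the array, with a largest deviation of 0.241% to 0.415% per array over values above 0.05. Its column medians were 0.1025 to 0.1055.

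Here the processed intensity was taken as log2 minus the log2 of the array's 75th percentile over non-control probes. Probes well above background on at least 3 of 6 arrays were kept (37783), control and outlier spots were left out, and the probe with the highest mean stood for a gene. Symbols came from accessions in a RefSeq table (GRCr8), for 28206 probes (45.8%). The groups' means were tested in limma 3.58.1 (lmFit, eBayes) under R 4.3.3, with data.table at version 1.17.8. Benjamini-Hochberg adjustment was over 27506 genes. The same fit was afterwards run on simulated data that used these genes' means and spreads. Replicates sharing a number were not treated as pairs in the main fit. Alternatives changed the scaling, background correction (normexp with offset 50, on median signals), source of values, filter, probe rule, variance model, slide or replicate block, and arrays.

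The genes, their roles and the other lists were chosen with earlier results of these data known. All 31 measured genes are named, and from each other lipid list up to 4 called genes with the largest difference, or the brightest where none was called. The cell type marker lists are given mainly as counts and sums, and only some of their genes are named.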

Additional observations from a re-analysis of the deposited data

How the results depend on the processing

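Under quantile normalization, a percentile taken only over probes detected on every array, the deposited value table, the stricter filter and single probes, 5 members were called higher, and under normexp, the mean of probes and the intensity trend 6. With no filter on dim probes the counts were 2 members, 750 genes higher and 694 lower, with 45432 genes tested in place of 27506. With a replicate block they were 0 members (limma, 10 at an unadjusted p under 0.05), 585 genes higher and 535 lower. In their deviations from the group means, same-numbered arrays correlated at 0.05, 0.07 and -0.10. Differently numbered arrays correlated at -0.12 to 0.09, a like range, so these values do not decide whether the numbers paired the animals. With slide as a block, which takes water replicate 1 out of the comparison, 5 members were called. Leaving out 1 array in turn gave 0 to 5 members higher, 594 to 1495 genes higher and 530 to 1835 lower, and a members' median of 0.15 to 0.25. The simulated data and the member calls both rest on 3 arrays per group. All 31 members were well above background on all 6 arrays, where the filter asked for at least 3. Why calls changed between settings was not tested.

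Of 527 comparisons of a member's difference with its main value, 477 kept direction and call. Among the others, 29 lost and 5 gained a call, and 16 turned direction, all 16 in genes not called. Only the 5 members called higher had a call to lose, and the 26 others had none. Some settings, such as the intensity trend and the replicate block, leave the members' differences unchanged by design. Slide as a block repeats the fit without water replicate 1, so 477 of 527 is not a measure of stability. Hsd17b7 was at 0.0603 under normexp, 0.0694 with the mean of probes and 0.110 with slide as a block, where Nsdhl was at 0.0356, Insig2 at 0.00807 and Fasn at 0.0937. Leaving out arrays gave -0.111 to 0.110 for Hsd17b7, -0.181 to 0.0356 for Nsdhl, -0.0998 to 0.00807 for Insig2, -0.269 to 0.0937 for Fasn, -0.108 to 0.0263 for Elovl5, -0.0826 to 0.447 for Dhcr7, -0.0255 to 0.122 for Nr1h3 and -0.0718 to 0.0076 for Scap. The cause was not tested.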

Other observations

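Some lipid genes outside the members had wide differences without a call and were picked after their values were seen. Ch25h, which makes an oxysterol that LXR binds, was at -0.61, -0.06 and -1.61 in water and 0.68, 0.42 and 0.18 in bromate. The groups did not overlap, and the difference was 1.19 ± 0.40 (adjusted p = 0.099). Mid1ip1, which activates acetyl-CoA carboxylase, was at 2.35, 2.78 and 2.93 in water and 3.72, 3.19 and 3.51 in bromate, a difference of 0.79 ± 0.20 (adjusted p = 0.053). The animals' standard deviation in bromate was smaller than in water for 19 of the 31 members (61.3%) and for 51.5% of all genes tested.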
